A study of Mus musculus with 16 samples.

Results

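Expression in the airway epithelium of Itgb6 knockout mice (ko) was compared with that of wild-type mice (wt) over all 16 arrays of the series, 8 per genotype, with the agent given to the mice as a covariate. A difference was called steady if it had the same sign after both agents and its interaction with agent had an unadjusted p of at least 0.05. Of interest were steady differences that passed when pooled but after neither agent by itself. Of 18566 genes and unnamed transcripts tested, 48 passed in the pooled comparison and 20 of these passed with pooling alone.

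The arrays fell into 4 groups of 4, named wt_saline, wt_OVA, ko_saline and ko_OVA. OVA is ovalbumin, an egg-white protein used to induce allergic airway inflammation, and saline was the control agent. All mice were of the FvB strain, and their age at sensitization was 6 to 8 weeks. They were sensitized in the abdomen on days 1, 4 and 7, with 20 ug of protein in the OVA groups, and were then challenged through the nose at weekly intervals over 9 weeks, with 10 ug each time. The epithelium was brushed from the airways, with harvest 24 h after the final challenge, and 0.5 ug of RNA was labelled for a one-colour array. The knockout is called beta6 ko, and the labels give neither the allele nor the strain of the stem cells in which it was made. They also do not say that each array holds a separate mouse, so the p-values below measure the spread between these samples, which may be technical.

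Itgb6 encodes the beta6 integrin subunit, which pairs only with alpha v and is found on epithelial cells. The alpha v beta6 integrin binds the latency peptide of TGF-beta and frees the active cytokine, which restrains inflammation and drives matrix genes. Mice without it are known for inflammation of the lung and, with age, emphysema.

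All levels are log2 of the processed signal over the 75th percentile of the same array, so 0 is the level of a probe at that percentile and -3.32 is the lowest value allowed, called the floor. The 75th percentile itself lay between 78.0 intensity units on ko_OVA 4 and 793 on ko_saline 3. Between 43.3% (ko_OVA 4) and 74.5% (wt_OVA 1) of probes were well above background, with 72.7% on wt_OVA 2, so these 3 arrays stood apart. The epithelial markers Epcam, Krt8, Krt18 and Krt19 were well above background on all 16 arrays, and the eosinophil markers Epx and Prg2 were at the floor on all ko arrays and at most -2.07 and -2.03 in wt. RNA came from whole brushings, in which fewer cells of a type and less RNA per cell cannot be told apart.

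Itgb6 itself was read by 3 probes. On the brightest, the wt_saline arrays read -0.88, -0.93, -0.81 and -0.39 and the wt_OVA arrays -0.56, -0.57, -0.59 and -0.64. The ko_saline arrays read -1.02, -0.78, -0.73 and -0.92 and the ko_OVA arrays -0.98, -1.71, -0.96 and -1.02. Signal was thus present in every ko array, and the genotypes overlapped. The pooled difference, ko minus wt, was -0.34 (exact permutation p = 0.00816, two-sided, labels permuted within agent, 4900 permutations). In limma over all genes it did not pass (adjusted p = 0.489 pooled, 0.971 after saline and 0.547 after OVA). A dimmer probe differed by -0.55 (exact permutation p = 0.00245, same test) and the remaining probe never left the floor. Where these probes lie relative to the disruption is not given, so they check no genotype label.

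The pooled comparison asked which genes differ by genotype whatever the agent. In limma with Benjamini-Hochberg adjustment over all genes at 0.05, 39 genes were higher in ko and 9 lower, which is 0.259% of those tested (0.21% higher and 0.0485% lower). After saline alone 23 were higher and 7 lower (0.162% of genes), and after OVA alone 19 were higher and 8 lower (0.145%). Of the 48 pooled calls, 21 were also made after each agent, 5 also after saline only and 2 also after OVA only. The other 20, or 0.108% of genes, passed with pooling alone: 16 were higher and 4 lower. Under scaling by each array's median, which moved the median of all genes from -0.01 to 0.18, the pooled calls were 69 higher and 6 lower.

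The rule selects genes that failed after each agent alone, so their sizes and adjusted p-values are given as a description. The differences of the 20 genes had a median size of 0.83 on the log2 scale (range 0.31 to 3.39), against 2.19 (0.71 to 4.14) for the other 28 pooled calls, and 6 of the 20 reached 2-fold. Their adjusted p was 0.0589 to 0.438 after saline and 0.0758 to 0.884 after OVA in limma. Unadjusted, all 20 had a limma p under 0.05 after each agent. The pooled call rests on these same arrays of both agents, so this is a description and no separate support. All 20 met the rule for a steady difference, with unadjusted interaction p-values of 0.101 to 0.999. The ratio of the difference after OVA to that after saline had a median of 0.956 (0.515 to 1.40), and for the other pooled calls it was 0.740 (0.329 to 2.14). A p that misses the threshold does not show that the effects after OVA and saline were equal.

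**Figure D1:**
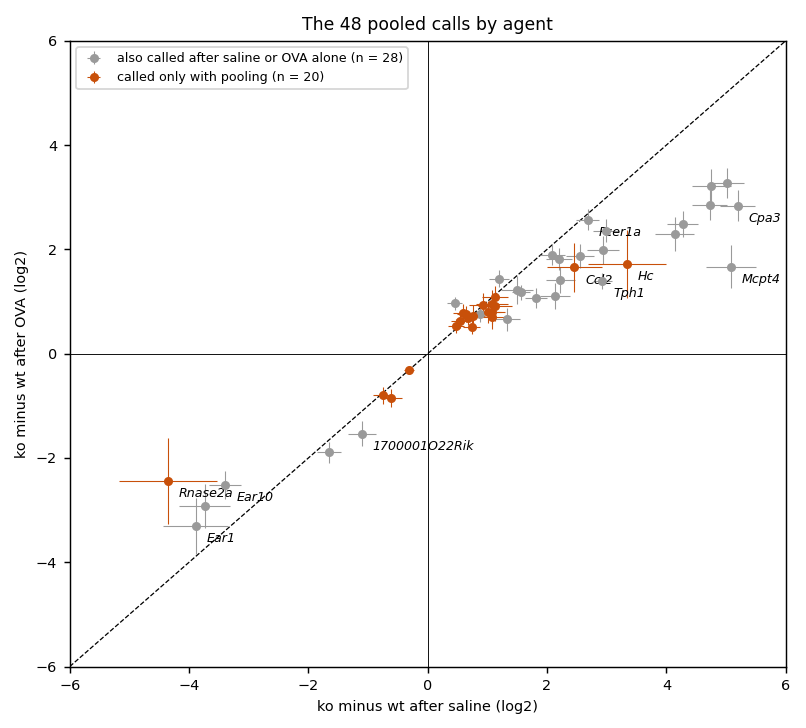
Knockout effect after OVA (y axis) against that after saline (x axis), both as log2 ko minus wt, for the 48 genes that passed in the pooled comparison; orange marks the 20 genes that passed only with pooling and grey the 28 also passing after an agent alone, lines through points are ± 1 SE and the dashed line marks equal effects. All 48 genes have the same sign after both agents, and the genes called only with pooling lie mostly near the origin.

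For the 48 pooled calls, chosen on both agents together, the direction never differed between agents, and 37 of them were larger after saline. The interaction, which tests the difference between agents itself, called 0 genes in limma, with 569 genes at an unadjusted p under 0.05 and a lowest adjusted p of 0.155. Of the 48 pooled calls 15 had an unadjusted interaction p under 0.05, and by the rule none of those is called steady. The 8 ko arrays and the 8 wt arrays did not overlap for 36 of the 18566 genes (0.194%), of which 32 were pooled calls and 7 were among the 20 that needed pooling. The latter were Trub2, Lypd6, Slc6a4, Abcb1b, Bcl6 and Zbtb43, all higher in ko, and Pbx3, lower in ko. All 8 wt arrays of Slc6a4 were at the floor, and other probes of Abcb1b and Zbtb43 showed no such difference.

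Where an array sat on its slide moved with genotype. Position 2 held only wt and position 3 only ko, while positions 1 and 4 held 2 arrays of each. With position as a fixed block 21 genes passed in limma, and of the 20 genes that needed pooling only Aox1 did. Within position 1 and within position 4 the difference kept its sign for all 48 pooled calls. Those genes were called on these same arrays, so the signs are a description. At position 1 agent was mixed in, with ko_saline 1 and ko_saline 3 set against wt_saline 4 and wt_OVA 3. Every slide held both genotypes, but slide 3 had 3 wt arrays and 1 ko array, and slide 4 had 1 wt and 3 ko. The 20 were chosen on these same arrays, so their signs by slide are a description too. On each slide with values 19 of the 20 kept their sign. The exception was the unnamed transcript AK049248, with differences of 0.59, 0.80, 0.12 and -0.14 on the 4 slides. The part of position in these results was not tested further.

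Chromosome 2, which carries Itgb6, held 8 of the 17 named genes that passed only with pooling, and 3 of the 22 other named calls. Of 1022 named genes tested there 11 passed in limma (1.08%), 8 higher and 3 lower, against 28 of 11829 on all other chromosomes (0.237%) and 0.303% of all named genes. Chromosome 14 had a higher share, 6 of 439 (1.37%): Cma1, Cma2, Mcpt4, Ear1, Ear10 and Rnase2a. In the order of protein-coding genes, 9 of the 11 lay before Itgb6, where 319 genes were tested (2.82%), and 2 lay after it, where 702 were (0.285%). Within 300 genes before Itgb6 7 of 202 passed (3.47%). Within 300 genes after it 0 of 99 passed in limma. Median sizes of the difference over all tested genes were similar, 0.10 on chromosome 2 and 0.10 elsewhere. With position as a fixed block 0 genes within 300 of Itgb6 passed, and with slide as a fixed block 4 did.

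**Figure D2:**
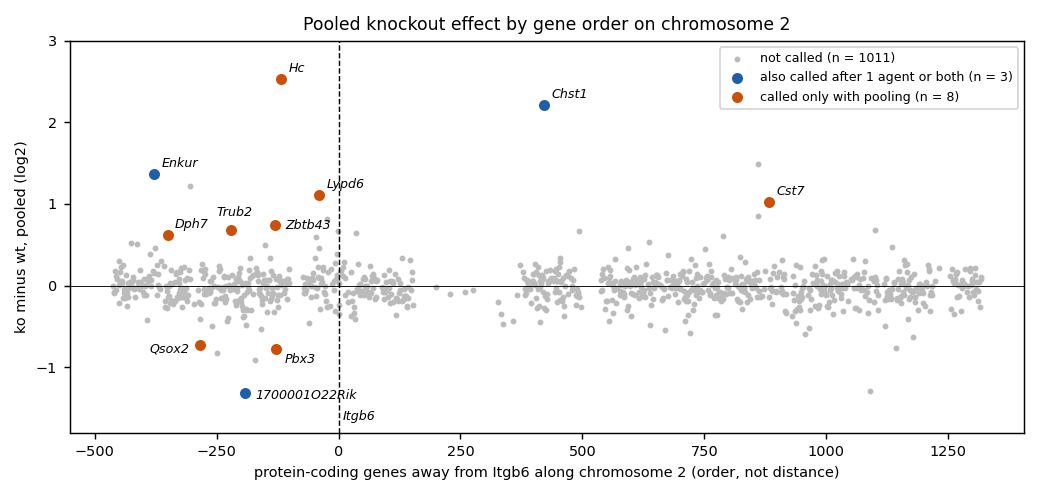
Pooled knockout effect (y axis, log2 ko minus wt) of the named genes tested on chromosome 2 in the order of protein-coding genes away from Itgb6 (x axis, dashed line at 0). The 11 called genes are named: 9 lie before Itgb6 and 2, Chst1 and Cst7, after it, and the remaining genes scatter around 0.

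Lypd6, 40 genes before Itgb6, encodes a membrane-anchored protein that modulates Wnt signalling and nicotinic receptors. Its level lay between -2.67 and -1.77 in wt (median -2.14) and between -1.67 and -0.55 in ko (median -0.93). The lowest ko array lay above the highest wt array. The pooled difference was 1.11 ± 0.15 (SE, n = 8 and 8, limma adjusted p = 0.00137), with 1.13 after saline and 1.08 after OVA. Neither agent alone sufficed, at limma adjusted p-values of 0.0611 and 0.109.

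Trub2, 221 genes before Itgb6, encodes a pseudouridine synthase of mitochondrial RNA. On the wt arrays it read 2.91, 3.39, 3.47 and 3.16 after saline and 3.31, 3.34, 3.34 and 3.06 after OVA. On the ko arrays it read 3.82, 3.98, 3.99 and 3.85 after saline and 3.92, 3.73, 4.21 and 3.90 after OVA. Every ko array exceeded every wt array, and the difference was the same after both agents, 0.68. Pooled it was 0.68 ± 0.09 (SE, n = 8 and 8, limma adjusted p = 0.000978), the smallest adjusted p among the genes that needed pooling. A dimmer Trub2 probe differed by 0.49.

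Pbx3, 128 genes before Itgb6, encodes a homeodomain transcription factor and was lower in ko. Levels were -1.28 to -0.57 in wt (median -0.94) and -1.99 to -1.43 in ko (median -1.81), without overlap. Its pooled difference was -0.77 ± 0.11 (SE, n = 8 and 8, limma adjusted p = 0.00307), made of -0.75 after saline and -0.80 after OVA. Median scaling took away the call.

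Qsox2, 284 genes before Itgb6, encodes a sulfhydryl oxidase that forms disulfide bonds, and it too was lower. It lay between -2.33 and -1.19 in wt (median -1.74) and between -2.90 and -1.75 in ko (median -2.50). The ranges overlapped, and most arrays of both genotypes read higher after OVA than after saline. With agent in the model the difference was -0.73 ± 0.12 (SE, n = 8 and 8, limma adjusted p = 0.0135). Without the agent term the call was lost, as under median scaling, normexp and slide as a block.

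Dph7, 350 genes before Itgb6, encodes an enzyme of the diphthamide modification of elongation factor 2. Its wt arrays ran from 0.09 to 0.76 (median 0.31) and its ko arrays from 0.75 to 1.20 (median 1.00), so that the lowest ko array lay just below the highest wt array. The difference was 0.62 ± 0.10 (SE, n = 8 and 8, limma adjusted p = 0.00837), 0.73 after saline and 0.51 after OVA. Dph7 lost its call under median scaling as well.

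**Figure D3:**
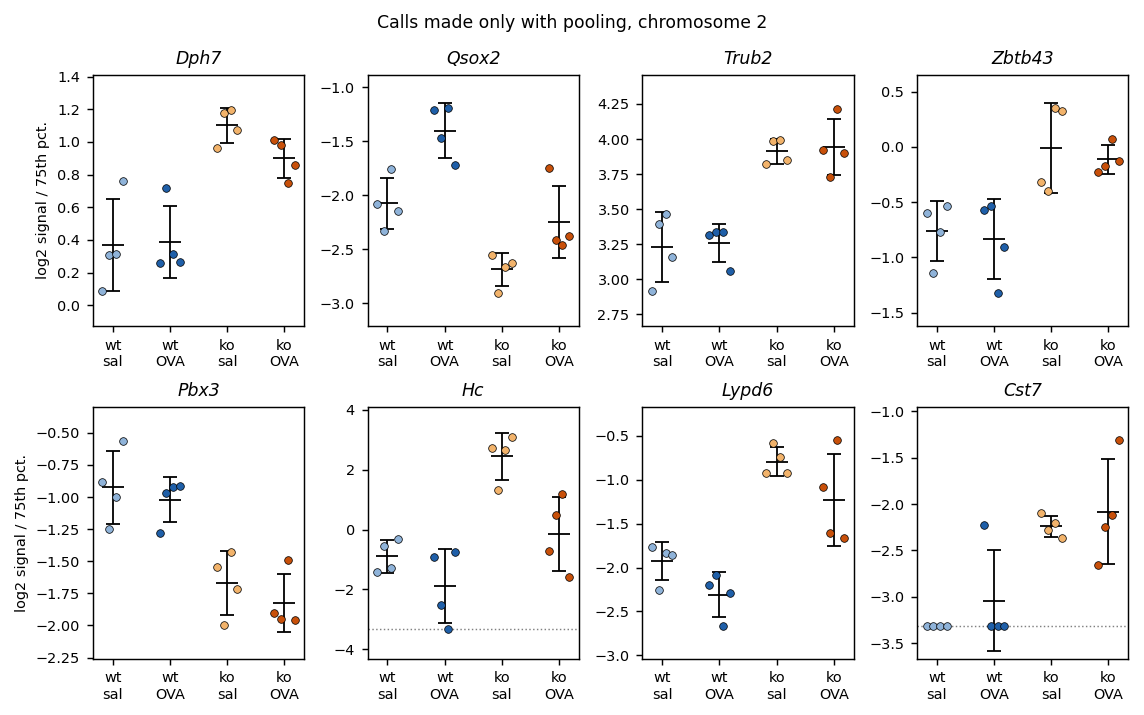
Level on each array (y axis, log2 of signal over the array's 75th percentile) of the 8 genes of chromosome 2 that passed only in the pooled comparison, by group; each point is 1 array, the long bar is the group mean, whiskers are ± 1 SD and a dotted line, where drawn, is the floor. For Lypd6, Trub2, Pbx3 and Zbtb43 no ko array overlaps a wt array.

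Hc, 117 genes before Itgb6, encodes complement component C5, and FVB is among the strains known to carry a null allele of it. Its levels were -1.43, -0.55, -1.28 and -0.33 in wt_saline and -0.92, -2.51, -3.31 and -0.76 in wt_OVA. They were 2.74, 1.31, 2.66 and 3.08 in ko_saline but -0.70, 0.50, 1.20 and -1.60 in ko_OVA. All ko_saline arrays exceeded all wt arrays, and 2 of the 4 ko_OVA arrays did not. The difference was 2.53 ± 0.49 (SE, n = 8 and 8, limma adjusted p = 0.0466), 3.34 after saline and 1.72 after OVA. Hc kept its call only on leaving out wt_OVA 1, wt_OVA 4, ko_OVA 1 or ko_OVA 4; over all arrays left out the difference was 2.37 to 2.82 and the adjusted p reached 0.129. Of 17 measured complement genes Hc alone passed, with a list median of -0.04 against -0.01 over all genes. Neither genotype nor sequence at Hc was measured, and the part of strain was not tested.

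Zbtb43, 131 genes before Itgb6, encodes a zinc finger protein with a BTB domain. It lay between -1.32 and -0.53 in wt (median -0.69) and between -0.40 and 0.35 in ko (median -0.15), without overlap. The difference was 0.74 ± 0.14 (SE, n = 8 and 8, limma adjusted p = 0.0466), 0.75 after saline and 0.72 after OVA. A second probe of the gene showed no such difference (-0.07). The probe used, the brightest over all arrays, was the dimmer of the 2 in wt (mean -0.80 against -0.51). In ko it was the brighter (-0.06 against -0.58). When the probes were averaged the call was lost. Zbtb43 kept its call only on leaving out wt_OVA 2, ko_saline 1 or ko_saline 2, and over all arrays left out the difference was 0.66 to 0.80 and the adjusted p reached 0.118.

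Cst7 lies 883 genes after Itgb6 and encodes cystatin F, which inhibits cathepsins in leukocytes. It was at the floor on 7 of 8 wt arrays and reached -2.22 on wt_OVA 1, and in ko it ran from -2.66 to -1.31 (median -2.23). The fitted difference of 1.02 ± 0.18 (SE, n = 8 and 8, limma adjusted p = 0.0221) therefore depends on the floor. The probe was well above background on 3 wt arrays and 8 ko arrays, so Cst7 passed the filter through ko. Its call held without wt_OVA 1, ko_saline 4 or any ko_OVA array. It was lost without any of the other 10 arrays, with differences of 0.90 to 1.15 over all arrays left out and adjusted p-values up to 0.0629.

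The other called genes of chromosome 2 passed after an agent alone too. Enkur, which encodes a calmodulin-binding protein of cilia and sperm and lies 378 genes before Itgb6, lay between 1.21 and 1.84 in wt and between 2.66 and 3.28 in ko (1.37 ± 0.12, limma adjusted p = 8e-06). 1700001O22Rik, 192 genes before Itgb6, lay between -1.48 and -0.19 in wt and between -2.91 and -2.07 in ko (-1.32 ± 0.17, limma adjusted p = 0.000978). Chst1, a sulfotransferase of keratan sulfate 422 genes after Itgb6, lay between -3.32 and -2.21 in wt and between -1.36 and -0.25 in ko (2.21 ± 0.18, limma adjusted p = 6.27e-06). None of these 3 genes had overlapping genotypes, and no wt_saline array of Chst1 rose above the floor.

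The other 9 named genes that passed only with pooling lie off chromosome 2. Ccl2, the chemokine that recruits monocytes, read -3.06, -3.32, -3.32 and -3.32 in wt_saline and -1.47, -3.05, -2.56 and -1.83 in wt_OVA. It read -0.44, -0.99, -0.22 and -1.53 in ko_saline and -1.28, -0.66, -1.30 and 0.94 in ko_OVA. Only wt_OVA 1 overlapped the ko arrays. The difference was 2.06 ± 0.33 (SE, n = 8 and 8, limma adjusted p = 0.00955), and as 3 wt arrays were at the floor its size depends on it. Gpr65, a proton-sensing receptor of leukocytes, lay between -2.39 and -1.22 in wt and between -1.52 and -0.37 in ko (0.89 ± 0.17, limma adjusted p = 0.044). Its call held only without wt_OVA 1, wt_OVA 4, ko_OVA 1 or ko_OVA 3, and over all arrays left out the difference was 0.79 to 0.97 and the adjusted p reached 0.103.

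Slc6a4, the serotonin transporter, was at the floor on all 8 wt arrays. In ko it read -1.97, -1.88, -2.34 and -2.73 after saline and -3.27, -2.22, -2.45 and -2.17 after OVA. No ko array was at the floor, although ko_OVA 1 lay just above it. The difference was at least 0.94 on the log2 scale (limma adjusted p = 0.00974), a lower bound set by the floor. Its probe was well above background on all 8 ko arrays and on 1 wt array, so it passed the filter through ko. Since the floor left the wt arrays no spread, the p is given as a description.

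Abcb1b, a P-glycoprotein that pumps drugs and lipids out of cells, lay between -3.15 and -2.58 in wt (median -2.82) and between -2.45 and -1.23 in ko (median -2.05). The genotypes did not overlap, and ko_OVA 4 was the highest array. Its difference was 0.93 ± 0.16 (SE, n = 8 and 8, limma adjusted p = 0.015), with 0.93 after saline and 0.92 after OVA. A dimmer probe of Abcb1b did not show it (-0.04), and the call was lost when the probes were averaged. Arap3, which encodes a GTPase-activating protein for Arf proteins, lay between -2.43 and -1.42 in wt and between -1.74 and 0.11 in ko (1.01 ± 0.20, limma adjusted p = 0.0466). The Arap3 call held only without wt_OVA 4, ko_OVA 1 or ko_OVA 4, at differences of 0.87 to 1.16 over all arrays left out and adjusted p-values up to 0.118.

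Mast cell transcripts moved with genotype on these same arrays. Over the 24 measured genes of both mast cell lists, 12 were higher in ko and 0 lower in limma, where 0.21% of all genes were higher and 0.0485% lower, with a median difference of 1.04 against -0.01 over all genes. Their summed linear level, in units of the 75th percentile, was 79.3 to 102 in wt_saline, 97.7 to 104 in wt_OVA, 135 to 159 in ko_saline and 149 to 221 in ko_OVA. Most of the wt sum came from receptors, factors and amine genes, at 76.63 to 99.15 in wt_saline and 88.3 to 103.9 in ko_saline. The proteases alone summed to 1.31 to 2.70 in wt_saline and 7.33 to 17.7 in wt_OVA. In ko they summed to 46.3 to 64.2 after saline and 47.6 to 90.9 after OVA. The part of mast cell RNA in the differences of Ccl2, Gpr65, Slc6a4, Cst7, Abcb1b and Arap3 was not tested.

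Aox1, an aldehyde oxidase that metabolizes drugs and aldehydes, read 2.53, 2.33, 2.41 and 2.68 in wt_saline and 1.56, 1.72, 1.97 and 2.01 in wt_OVA. It read 3.23, 2.72, 3.52 and 3.05 in ko_saline and 2.59, 2.65, 2.66 and 2.40 in ko_OVA. Within each agent every ko array lay above every wt array, while across agents the ranges overlapped and both genotypes had lower means after OVA. The pooled difference was 0.70 ± 0.11 (SE, n = 8 and 8, limma adjusted p = 0.00533), 0.64 after saline and 0.76 after OVA. Without the agent term it did not pass, nor under median scaling or with slide as a fixed block.

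Bcl6, a transcriptional repressor of germinal centre B cells and type 2 inflammation, had values on 12 arrays only, since its spot was left out on all 4 arrays of slide 1. It lay between 4.69 and 5.23 in wt and between 5.35 and 5.44 in ko, without overlap. The difference was 0.50 ± 0.09 (SE, n = 6 and 6, limma adjusted p = 0.0466). The Bcl6 call held without wt_OVA 3 and was lost without any other array that has a value, at 0.46 to 0.57 over all arrays left out and adjusted p-values up to 0.13.

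Cdc42bpb, a kinase that acts downstream of Cdc42 on actomyosin, gave the smallest of the 20 differences. It lay between 0.38 and 0.80 in wt (median 0.54) and between 0.05 and 0.42 in ko (median 0.25). The difference was -0.31 both after saline and after OVA, and pooled -0.31 ± 0.06 (SE, n = 8 and 8, limma adjusted p = 0.0223). The Cdc42bpb call was lost without wt_saline 1, wt_saline 3, wt_OVA 3, ko_saline 2, ko_saline 3 or ko_OVA 2. Under the 16 other alternatives Cdc42bpb kept its call in 8, at differences of -0.35 to -0.11 over all 16. Median scaling, quantile normalization, normexp, the series table and slide or array position as a block were among those that lost it. Over all arrays left out its difference was -0.33 to -0.29 and the adjusted p reached 0.069.

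Rnase2a, an eosinophil-associated ribonuclease, gave the largest. Its levels were 2.37, 2.66, 2.48 and 1.34 in wt_saline and 1.55, 0.71, 1.72 and 2.12 in wt_OVA. They were -1.21, -3.06, -0.97 and -3.32 in ko_saline and -3.32, -0.97, -1.002 and 1.63 in ko_OVA. All ko arrays but ko_OVA 4 lay below all wt arrays. The difference was -3.39 ± 0.61 (SE, n = 8 and 8, limma adjusted p = 0.0236), -4.35 after saline and -2.44 after OVA. As ko_saline 4 and ko_OVA 1 were at the floor, these sizes depend on it. Rnase2a kept its call without wt_OVA 2, ko_saline 1, ko_saline 3 or any ko_OVA array. Without any of the other 9 arrays the call was lost, with differences of -3.86 to -3.10 over all arrays left out and adjusted p-values up to 0.074. The Rnase2a call was also lost with slide, array position or replicate as a block.

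Related ribonucleases on chromosome 14 passed after each agent, with sizes that depend on the floor. Ear10 ran from -0.80 to 0.88 in wt and was at the floor on 6 of 8 ko arrays (-2.96 ± 0.22, limma adjusted p = 2.39e-06). Ear1 ran from 0.19 to 1.82 in wt and was at the floor on 5 of 8 ko arrays (-3.60 ± 0.38, limma adjusted p = 9.08e-05). In the list of chitinase-like proteins and ribonucleases, 2 of 11 measured genes were lower, 0 higher and 9 were not called, against 0.0485% of all genes lower and 0.21% higher. The list median was -0.70 and that of all genes -0.01. Rnase2a was not on that list. Of the eosinophil list 0 of 3 measured genes passed in limma, 1 (Alox15, -0.38) had an unadjusted p under 0.05 and the median was 0.07. Epx and Prg2, too dim to be kept for the tests, left the floor on wt arrays only. Siglecf, another eosinophil marker, reached -2.35 in wt and -1.78 in ko. The part of eosinophil RNA in these differences was not tested.

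The other 3 of the 20 are unnamed transcripts, all higher in ko and none of them free of overlap between genotypes. Their differences were 0.91 ± 0.15 (limma adjusted p = 0.0121) for AK007434, 0.58 ± 0.10 (limma adjusted p = 0.0163) for AK049248 and 0.68 ± 0.12 (limma adjusted p = 0.0173) for AK008679. AK008679 lost its call without wt_saline 3, wt_OVA 3 or ko_saline 3, at differences of 0.63 to 0.74 over all arrays left out. Of the other alternatives it kept the call under 9 of 16, against 12 of 16 for AK049248 and 13 of 15 for AK007434.

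**Figure D4:**
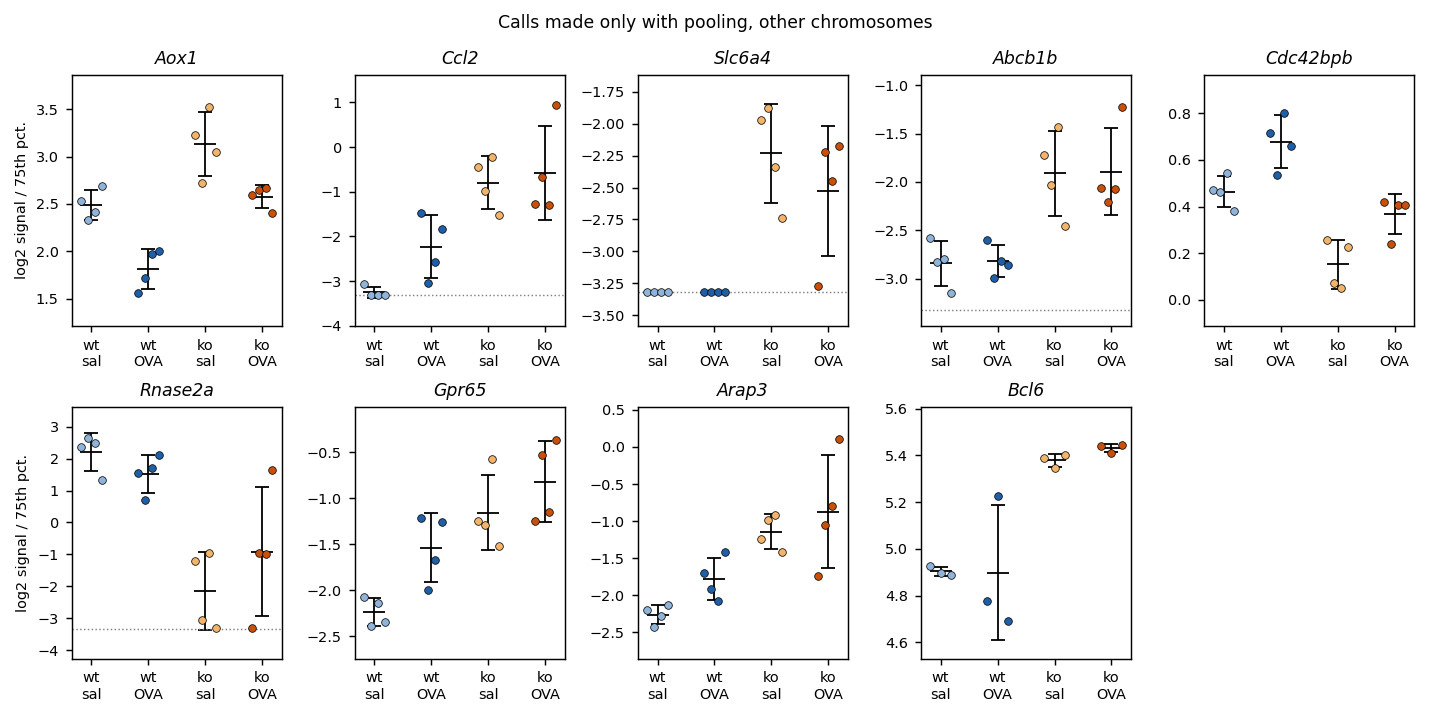
Level on each array (y axis, log2 of signal over the array's 75th percentile) of the 9 named genes of other chromosomes that passed only in the pooled comparison, by group; each point is 1 array, the long bar is the group mean, whiskers are ± 1 SD and a dotted line, where drawn, is the floor. Slc6a4 is at the floor of -3.32 on all 8 wt arrays, and on ko_OVA 4 Rnase2a reads 1.63, inside the wt range.

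The largest pooled differences with a symbol belonged to proteases stored in mast cell granules. Cma2 lay between -3.32 and -0.47 in wt and between 1.70 and 3.07 in ko (4.14 ± 0.30, limma adjusted p = 2.39e-06). Cpa3 lay between -3.32 and 0.23 in wt and between 2.47 and 2.99 in ko (4.02 ± 0.36, limma adjusted p = 1.52e-05). Neither met the rule for a steady difference, with differences of 5.01 and 5.19 after saline and of 3.27 and 2.84 after OVA. Of 9 measured mast cell proteases 6 were higher and 0 lower (0.21% and 0.0485% of all genes), with a median of 3.38 against -0.01 over all genes: Cma1, Cma2, Cpa3, Mcpt4, Tpsb2 and Tpsg1. Of these Tpsg1 was at the floor on 7 of 8 wt arrays. Its probe was well above background on 3 wt and 8 ko arrays, so it passed the filter through ko.

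Fcer1a, a chain of the IgE receptor, had the smallest adjusted p in the pooled comparison, passed after each agent and met the rule for a steady difference, so it did not need pooling. It was at the floor on 5 of 8 wt arrays, all 4 of wt_saline among them, and ran from -1.003 to 0.08 in ko (2.62 ± 0.14, limma adjusted p = 8.5e-08). Slc18a2, which loads amines into granules, did so too (1.99 ± 0.14, limma adjusted p = 2.39e-06). Mrgprb2, a mast cell receptor for basic peptides, passed when pooled and after saline (at least 0.83, at the floor on all wt arrays, limma adjusted p = 0.000978). Mrgprb2 was well above background on 0 wt and 8 ko arrays and Slc18a2 on 3 and 8, so both passed the filter through ko. With the lower floor the call of Mrgprb2 was lost. Gata2, a transcription factor of mast cells and basophils, was higher by 2.47 ± 0.22 (limma adjusted p = 1.33e-05). Of 15 measured mast cell receptors, factors and amine genes 6 were higher and 0 lower, with a median of 0.20, against the same all-gene shares and median. Mcpt1 (-2.09, adjusted p = 0.334) and Mcpt2 (-0.69, adjusted p = 0.453) did not pass when pooled in limma, although both passed after OVA.

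Since Gata2 was among the called genes, the promoters of the called genes were searched for the GATA motif, read as AGATAA or TGATAA on either strand in the 250 bases before any start that RefSeq lists on GRCm38.p6. Of the called mast cell genes 7 of 10 with a promoter in that table held it, and of all pooled calls 9 of 30. Of the genes that needed pooling 1 of 14 did, Zbtb43. The motif occurred in 18.8% of all 27025 genes in the table and in 11.8% of the 10257 tested genes found there. The search was made with the calls known and describes letters only. The promoters of 3 mast cell genes and of Zbtb43 are shown to compare where the motif lies, in capitals, each read 5′ to 3′ on the strand of its gene. They lie at chr1:173227230-173227479 (minus strand, Fcer1a), chr3:20242182-20242431 (minus, Cpa3), chr17:25369023-25369272 (plus, Tpsg1) and chr2:33468533-33468782 (minus, Zbtb43).
Fcer1a: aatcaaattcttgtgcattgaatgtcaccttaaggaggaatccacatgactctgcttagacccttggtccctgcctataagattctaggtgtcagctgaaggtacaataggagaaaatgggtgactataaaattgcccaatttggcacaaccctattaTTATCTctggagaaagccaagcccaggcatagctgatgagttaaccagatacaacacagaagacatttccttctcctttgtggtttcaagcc
Cpa3: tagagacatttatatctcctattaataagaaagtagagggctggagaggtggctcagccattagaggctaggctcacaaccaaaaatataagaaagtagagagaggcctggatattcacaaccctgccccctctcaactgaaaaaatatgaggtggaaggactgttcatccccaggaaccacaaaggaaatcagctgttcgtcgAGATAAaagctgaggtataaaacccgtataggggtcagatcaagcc
Tpsg1: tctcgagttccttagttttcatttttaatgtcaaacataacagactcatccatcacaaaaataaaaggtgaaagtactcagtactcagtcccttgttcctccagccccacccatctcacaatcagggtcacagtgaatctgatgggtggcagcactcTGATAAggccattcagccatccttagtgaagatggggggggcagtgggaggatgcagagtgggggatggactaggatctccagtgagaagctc
Zbtb43: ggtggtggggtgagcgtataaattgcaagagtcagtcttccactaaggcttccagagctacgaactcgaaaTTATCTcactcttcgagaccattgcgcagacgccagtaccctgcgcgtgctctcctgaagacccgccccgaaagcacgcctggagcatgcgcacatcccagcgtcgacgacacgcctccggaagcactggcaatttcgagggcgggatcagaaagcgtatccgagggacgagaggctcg
Counted from its first base, the motif begins 92 bases before the start of Fcer1a, 46 before Cpa3, 93 before Tpsg1 and 179 before Zbtb43.

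The pathway of the deleted integrin showed no gene that passed. None of 11 integrin genes, 20 genes of TGF-beta ligands, latency proteins and receptors, or 28 TGF-beta targets passed in limma, with medians of -0.04, 0.02 and 0.03 against -0.01 over all genes. Under median scaling these medians were 0.16, 0.23 and 0.21, near the 0.18 of all genes, and 1 of the 20 ligand and receptor genes passed. Itgav, the alpha v partner of beta6, differed by -0.06 ± 0.11 (limma adjusted p = 0.886) and Tgfb1 by -0.36 ± 0.21 (limma adjusted p = 0.713). Both genes were named for their roles, with their values known.

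Of 39 gene lists 34 held no pooled call, among them all lists of club, ciliated, basal, mucous and alveolar cells. Their medians lay between -0.78 for adipocytes and 0.38 for fibroblasts and smooth muscle. Spdef, the transcription factor of mucous cells, was just outside the threshold. It read 1.39, 1.08, 1.32 and 1.41 in wt_saline, 0.99, 0.31, 0.81 and 0.86 in ko_saline, 2.30, 2.37, 2.68 and 2.80 in wt_OVA and 1.60, 2.12, 2.10 and 2.04 in ko_OVA. Within each agent the ko arrays were below the wt arrays, with a difference of -0.57 ± 0.11 (limma adjusted p = 0.0531). Gsdme, a pore-forming gasdermin, followed at 0.53 ± 0.10 (limma adjusted p = 0.0543). Hc and Zbtb43 were the last named genes inside it, both at 0.0466.

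Pooling also lost calls. Of the genes that passed after saline, Rprm, Chil3, Chil4 and Fpr2 did not pass when pooled, and of those that passed after OVA, Pla2r1, Mcpt1, Abcb11 and Mcpt2 did not. All 8 had an unadjusted interaction p of at most 0.0192. Pla2r1, a receptor of secreted phospholipase and the gene next to Itgb6, was at the floor on all 8 wt arrays and on 1 ko array, so its fitted differences of 0.27 after saline and 1.07 after OVA depend on the floor (limma adjusted p = 0.0034 after OVA, 0.0787 pooled). Its probe was well above background on 0 wt and 8 ko arrays, so it passed the filter through ko. Since the floor left the wt arrays of Pla2r1 no spread, its p-values are given as a description. Rprm, a cell cycle inhibitor 24 genes before Itgb6, differed by 1.30 after saline and 0.32 after OVA (limma adjusted p = 0.000521 after saline, 0.0551 pooled). It was at the floor on 6 of 8 wt arrays, so these sizes depend on the floor too. Abcb11, a bile salt pump 34 genes after Itgb6, was at the floor in both saline groups and differed by -0.82 after OVA (limma adjusted p = 0.00537). These 3 genes of chromosome 2 lay closer to Itgb6 than any gene that needed pooling.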

How the data were processed

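The 16 scanner files, 1 per array and 4 per group, hold processed signals in intensity units, background-subtracted by Agilent Feature Extraction 10.5.1.1, per the file headers (10.1 per the submitters' processing notes). A log2 table deposited for the series served only as an alternative, and its centring is not stated. Control and flagged spots were dropped, repeated spots averaged, signals divided by the array's 75th percentile, floored at -3.32 and log2 transformed. To set that floor, each array's lowest signal well above background was taken and the highest of these used. Probes well above background on at least 4 arrays were kept (25615 of 41174), and the brightest stood for each gene. Genes at the floor on all arrays were dropped, which left 18566, of which 12851 had a symbol. RefSeq symbols matched 24844 probes by accession. Transcripts left without a match are called unnamed, which does not mean that they belong to no known gene. That annotation is of GRCm38.p6 and the array design of mm9, so gene positions are given by order only.

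Genotype and agent were fitted in limma 3.58.1 (R 4.3.3) over all 16 arrays with Benjamini-Hochberg adjustment at 0.05; a fit of 4 group means gave the single-agent contrasts and the interaction. A call was steady with the same sign after both agents and an unadjusted interaction p of at least 0.05. The members, rules and 39 gene lists were chosen with earlier results of these data known, and counts of list members were not tested. Named were Itgb6, the steady calls made only with pooling (up to 12 per direction), the 6 largest other calls per direction, up to 3 called members per list, called genes within 100 genes of Itgb6 and the 2 genes on each side of the threshold. On simulated data of 17950 genes 52% of true differences of 0.5 were called, 20% with pooling alone, and 82% of those of 1. There were 10 false calls. The simulated noise was normal and independent, without floor, agent or position effects, so these rates need not hold for the real arrays. Alternatives covered scaling, background, filter, floor, probes, design, blocks and leaving out arrays. The number of arrays limits the precision.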

Additional observations from a re-analysis of the deposited data

Results flagged for a closer look

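In 25 of 181 groups of 4 arrays tested (13.8%), the highest or lowest array of a named gene stood apart from the other 3 by Dixon's test, where chance alone gives about 1 in 20. That rate does not hold for 8 of the 25, in which the other 3 arrays were tied at the floor: Tpsg1, Tph1, Ear1, Ear10 in both groups, NM_017388, Ccl2 and Cst7. Of the 25 groups 9 were set apart by ko_OVA 4, the array with the lowest 75th percentile. There Slc18a2 read -0.64, Ear10 -2.38, Cma1 5.55, Gpr162 -0.40, Tpsb2 3.36, Abcb1b -1.23 and Ear1 -0.92. The transcripts NM_017388 and Y00864, to which no symbol was matched, read -1.51 and 0.72. Each of these values lay above the other ko_OVA arrays.

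Among genes that passed only with pooling, Trub2 was low on wt_OVA 4 (3.06) and Pbx3 on wt_OVA 1 (-1.28), while Pbx3 was high on ko_OVA 3 (-1.49). Dph7 was high on wt_OVA 2 (0.72), Ccl2 on wt_saline 1 (-3.06), Qsox2 on ko_OVA 1 (-1.75) and Cst7 on wt_OVA 1 (-2.22), and Cdc42bpb was low on ko_OVA 2 (0.24). Itgb6 was low on ko_OVA 2 (-1.71).

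Among the other pooled calls, Slc18a2 was high on wt_OVA 1 (-2.44), Ear10 on ko_saline 3 (-2.49) and Tpsb2 on ko_saline 1 (2.62). Gata2 was low on ko_saline 4 (-1.04) and 1700001O22Rik on ko_saline 3 (-2.52). Tpsg1 on wt_OVA 2 (-3.31) and Tph1 on wt_saline 4 (-3.24) left the floor by little while the other arrays of their groups lay on it.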

How the results depend on the processing

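No value changed sign as a called value under any of the alternatives, and the counts moved as follows. The pooled count of 48 became 75 with median scaling, 74 with quantile normalization, 82 with normexp, 89 with the series table, 31 with probes well above background on all arrays, 21 with array position as a fixed block and 212 with array quality weights. Without the 3 arrays that stand apart, an alternative chosen after seeing the data, it was 78 (50 higher and 28 lower), with 44 calls made only with pooling. The 20 calls made only with pooling became 39 with median scaling, 39 with normexp, 39 with the series table, 12 without the agent term, 11 with slide as a fixed block, 2 with array position and 146 with array quality weights. Pooled calls among the 20 numbered 17 each with quantile normalization, normexp and the series table, 13 with median scaling and 13 without the 3 arrays.

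Replicate numbers did not pair the arrays: of 24 pairs with the same number in different groups 9 correlated above 0.1 (median r = -0.01). With the replicate block 38 genes passed when pooled and 12 only with pooling, 10 of them among the 20. After saline the count of 30 became 54 with quantile normalization, 54 with the series table, 19 with probes well above background on all arrays, 15 with array position and 127 with array quality weights, and after OVA the count of 27 became 11 with probes well above background on all arrays and 17 with the lower floor. The interaction called 1 gene with the lower floor, 1 with slide as a fixed block, 1 with array quality weights and 3 without the 3 arrays.

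The 15 called genes on lists became 9 with probes well above background on all arrays and 23 with array quality weights. Of the 7 calls within 300 genes of Itgb6, 4 passed with slide as a fixed block, 0 with array position and 11 genes with array quality weights. The Itgb6 difference, which passed only in its own permutation test, was -0.14 with median scaling (exact permutation p = 0.44).

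Leaving out 1 array gave 39 to 60 pooled calls and 13 to 25 calls made only with pooling, the lowest without wt_OVA 3. It gave 25 to 47 after saline (47 without ko_saline 4 and 46 without ko_OVA 4), 25 to 31 after OVA and 0 to 3 interactions. Of the 20 genes 11 kept their pooled call whichever array was left out, and none kept it under all 16 other alternatives. Trub2, Lypd6 and Ccl2 lost it only with array position. Bcl6 kept it under 6 of 15, and Cdc42bpb, Arap3 and Zbtb43 each under 8 of 16. Signal over background limits Slc6a4, Cst7, Ccl2, Rnase2a, Ear1, Ear10 and the mast cell genes, whose sizes rest on the floor.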
